A study of Mus musculus with 8 samples.

Results

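The genes described here code for the nuclear-encoded subunits of the mitochondrial respiratory chain and ATP synthase, complexes I to V. They were chosen by name: a probe belonged when its accession mapped to a mouse symbol beginning Nduf followed by a, b, c, s or v and a digit, to Sdha, Sdhb, Sdhc or Sdhd, to a symbol beginning Uqcr or Atp5, or to one beginning Cox4 to Cox8 followed by a letter. The array carried 84 such genes on 113 probes, out of 32432 genes on 39429 probes. By complex these were 37 genes of complex I, 4 of complex II, 8 of complex III, 18 of complex IV and 17 of complex V. A further 21 symbols that fit the rule, 15 of them pseudogenes, had no matched probe here. The rule reads names only, so it leaves out some subunits, such as Cyc1 of complex III. It also counts Ndufa4 and its paralog Ndufa4l2 under complex I, although the Ndufa4 protein is now placed with complex IV.

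RNA came from microvessels prepared from whole mouse forebrain by homogenisation, sedimentation and filtration below 70 µm, from mice aged 5 days (P5) or 10 days (P10) and from adults. The labels give no strain, genotype or treatment and no age for the adults. Each of 2 replicates filled 1 slide of 4 arrays, and every array held RNA of a pair of ages, 1 in red (Cy5) and 1 in green (Cy3): P5 with adult, P10 with adult, P10 with adult with the dyes exchanged, and P5 with P10. The labels do not say whether the replicates came from separate animals or from pools, so p-values reflect the spread of these preparations alone and that spread could be technical.

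The respiratory chain passes electrons from NADH (through complex I) and from succinate (through complex II) by way of ubiquinone, complex III and cytochrome c to oxygen at complex IV. The protons pumped on the way drive ATP synthase, complex V. A few subunits exist in several forms: Cox6a2, Cox7a1 and Cox8b are the forms of heart and skeletal muscle, Cox6b2 is a testis form, and Cox4i2 and Ndufa4l2 are transcripts known from oxygen-sensitive cells and from brain pericytes, the contractile cells on the outer wall of capillaries. Capillary cells of the brain barrier are known for a high mitochondrial content.

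RefSeq promoter windows (build GRCm38.p6, 250 bases before to 50 bases after the annotated start) were found for 68 of the 84 genes and searched on both strands for 5 short letter strings. The shares are set against the 27025 genes in the table and, in brackets, against its 17492 protein-coding genes. The nuclear respiratory factor 1 core GCGCATG was present in 13 genes (19.1%), against 4.41% (5.4%). Its variant GCGCAGG was in 12 (17.6%), against 9.59% (12.5%). The ETS core CCGGAAG, which GABP (nuclear respiratory factor 2) can bind, was in 17 (25%), against 9.93% (12.9%). The YY1 core ATGGCGG was in 10 (14.7%), against 4.69% (6.05%), and TATAAA in 8 (11.8%), against 15.7% (14.8%). A match is a run of letters, not a site known to be bound, and the GCGCATG and GCGCAGG strings can overlap. Of the 10 genes with a window that were lower at P5 than in the adult, 3 held the ETS core, 3 GCGCAGG, 3 the YY1 core, 2 TATAAA and 1 GCGCATG. Of the 4 with a window that were higher, 2 held the YY1 core and 0 any of the other strings.

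The windows below belong to 5 genes on which the results turn: the pair Cox8a and Cox8b (general and muscle form of the same subunit), Cox6b2 (the gene with the largest called difference), Sdha and Atp5j. All lie on the minus strand and are written 5′ to 3′ along the gene, and capitals mark matches to the strings above on either strand. They are Cox8a at chr19:7217567-7217866 (the ETS core at 2 places), Cox8b at chr7:140900397-140900696 (TATAAA), Cox6b2 at chr7:4753045-4753344 (no match), Sdha at chr13:74350191-74350490 (GCGCAGG at 2 places) and Atp5j at chr16:84834927-84835226 (the YY1 core and the ETS core, in the window of the second of its 2 annotated starts).
Cox8a: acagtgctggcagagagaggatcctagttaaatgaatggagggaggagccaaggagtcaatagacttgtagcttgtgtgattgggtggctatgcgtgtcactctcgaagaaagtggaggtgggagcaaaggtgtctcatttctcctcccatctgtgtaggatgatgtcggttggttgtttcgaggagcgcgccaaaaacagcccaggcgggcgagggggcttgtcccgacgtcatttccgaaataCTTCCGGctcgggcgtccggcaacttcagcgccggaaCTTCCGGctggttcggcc
Cox8b: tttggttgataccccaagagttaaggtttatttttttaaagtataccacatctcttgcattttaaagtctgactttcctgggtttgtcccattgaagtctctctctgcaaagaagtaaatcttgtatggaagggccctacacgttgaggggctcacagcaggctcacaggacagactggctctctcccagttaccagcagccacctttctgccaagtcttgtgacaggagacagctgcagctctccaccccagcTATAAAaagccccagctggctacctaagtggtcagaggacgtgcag
Cox6b2: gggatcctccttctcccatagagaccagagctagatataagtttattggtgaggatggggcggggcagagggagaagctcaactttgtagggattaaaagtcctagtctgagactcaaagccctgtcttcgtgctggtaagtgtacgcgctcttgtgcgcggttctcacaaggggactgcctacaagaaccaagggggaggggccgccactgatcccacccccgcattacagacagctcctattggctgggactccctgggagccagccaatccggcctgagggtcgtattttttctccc
Sdha: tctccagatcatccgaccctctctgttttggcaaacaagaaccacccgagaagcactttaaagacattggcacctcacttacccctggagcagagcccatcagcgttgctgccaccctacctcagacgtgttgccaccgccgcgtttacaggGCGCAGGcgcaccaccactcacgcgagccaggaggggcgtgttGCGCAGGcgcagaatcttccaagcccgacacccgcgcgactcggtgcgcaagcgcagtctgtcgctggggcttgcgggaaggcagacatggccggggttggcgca
Atp5j: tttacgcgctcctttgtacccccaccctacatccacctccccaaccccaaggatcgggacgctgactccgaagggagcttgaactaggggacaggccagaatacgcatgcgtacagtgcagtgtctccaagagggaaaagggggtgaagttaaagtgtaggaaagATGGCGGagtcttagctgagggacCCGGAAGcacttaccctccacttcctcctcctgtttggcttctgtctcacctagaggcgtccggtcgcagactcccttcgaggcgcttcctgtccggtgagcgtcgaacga

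Of the 84 genes, 82 passed the filter on dim probes, which asks that all channels of some age be well above background. Cox7b2, a testis form, and Cox8c, another form of subunit VIII, did not. Ndufb9 and Ndufc1 passed but lost spots on slide 1 to outlier marks and could not be fitted, which left 80 genes among 21941 in the fit. The members were bright: the median of their mean log2 intensity was 13.3, against 8.75 over all genes, and no member spot was saturated. Of the 43020 non-control spots, 65.2% to 73.3% were well above background per channel. Log2 ratios below are written younger over older, with the standard error (SE) of limma over the 2 replicates. "Called" means a Benjamini-Hochberg adjusted p under 0.05 from limma over all 21941 genes. P5 against adult and P10 against adult share the adult samples, and each age enters a pair of comparisons.

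The P5 sample of replicate 1 stood apart from that of replicate 2 in genes of striated muscle, a tissue outside the brain. In P5 over adult, 24 muscle genes had a median log2 ratio of 4.34 in replicate 1, from 0.90 (Mylpf) to 7.29 (Myh8), and 23 of the 24 lay above 1. In replicate 2 the median was -0.01, from -1.92 (Acta1) to 0.92 (Tnni2), and none lay above 1. In P10 over adult the medians were 0.39 and 0.04, and 7 of the 24 lay above 1 in replicate 1, up to 2.15 (Myh8), against none in replicate 2. limma called none of the 17 muscle genes that passed the filter, against 53.1% of all genes in P5 over adult. There 5 of the 17 had an unadjusted p under 0.05, against 13291 of all 21941 genes. The list was written after this difference had been seen, and counts are therefore also given without the P5 sample of replicate 1, with the lone P5 sample left assumed to vary like the other groups.

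Marker genes of the vessel cells and of some other cell types also moved with age. All 11 endothelial genes (among them Ly6c1, at -4.20) passed the filter and were lower at P5 than in the adult, with a median of -1.71. So were 8 of 9 pericyte genes (median -1.40), 5 of 7 smooth muscle genes (-2.42) and 5 of 6 oligodendrocyte genes (-2.54), whereas 7 of 7 immature neuron genes (2.45) and 7 of 7 erythroid genes (4.92) were higher. Among mature neuron genes 3 of 5 were lower (-0.53), among astrocyte genes 1 was higher and 2 lower of 6 (-0.43), among microglia genes 1 was higher of 6 (0.55), and among fibroblast genes 3 were higher and 2 lower of 5 (0.95). These counts are of called genes. Of all genes 53.1% were called in P5 over adult (30.1% higher and 23% lower), with a median of 0.09. The astrocyte list (50% called) and the microglia list (16.7%) lay below that share. In bulk samples of this kind, fewer cells of a type and less RNA per cell cannot be told apart. The part of these lists in the results that follow was not tested.

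Against this shift, most respiratory chain genes differed little between P5 and the adult. The median log2 ratio of the 80 genes was -0.06 (-0.04 in replicate 1 and -0.09 in replicate 2), against 0.09 over all genes. Within 0.5 of 0 lay 66 of the 80 genes (82.5%), against 55.7% of all genes. limma called 18 of the 80 (22.5%), 5 higher and 13 lower at P5, where 53.1% of all genes were called (30.1% higher and 23% lower). When the P5 sample of replicate 1 was left out, it called 17, 4 higher and 13 lower. Of the 18 calls, 9 were kept with normexp fitted on every spot, 9 without the replicate block and 13 (of 17 that could be fitted) without the 2 arrays that held faulty spots.

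**Figure D1:**
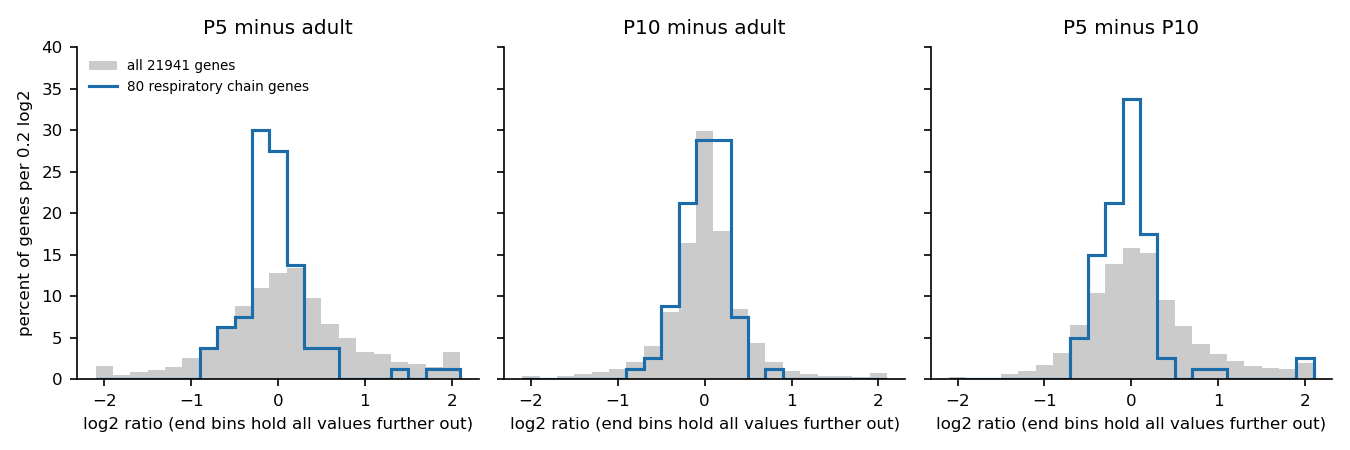
Distribution of log2 ratios in the 3 comparisons, in percent of genes per bin of 0.2 log2, for all 21941 genes (grey) and the 80 respiratory chain genes (blue line); the end bins hold all values further out. In P5 over adult 82.5% of the respiratory chain genes lie within 0.5 of 0, against 55.7% of all genes.

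These counts depend on the scaling. With each array centred on its median in place of the intensity-dependent loess curve, limma called 42 of the 80 genes in P5 over adult (1 higher, 41 lower) and 57 in P5 over P10 (all lower), with medians of -0.67 and -0.84. The shift was not limited to the chain: over all 2613 genes with a mean log2 intensity above 12, 62 of them members, the median in P5 over adult was 0.08 with loess and -0.56 with median centring, while over all genes it went from 0.09 to -0.07. In P5 over P10 the bright genes went from -0.01 to -0.78. P5 RNA was in Cy5 on every array that held it, so no array exchanged its dye. The dye term of the fit came from the P10 and adult pair and from the loop of the 3 age pairs on each slide. Whether bright genes as a whole were lower at P5 was therefore not settled by these arrays, and the part of the dye was not tested. The values below are those measured after loess.

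**Figure D2:**
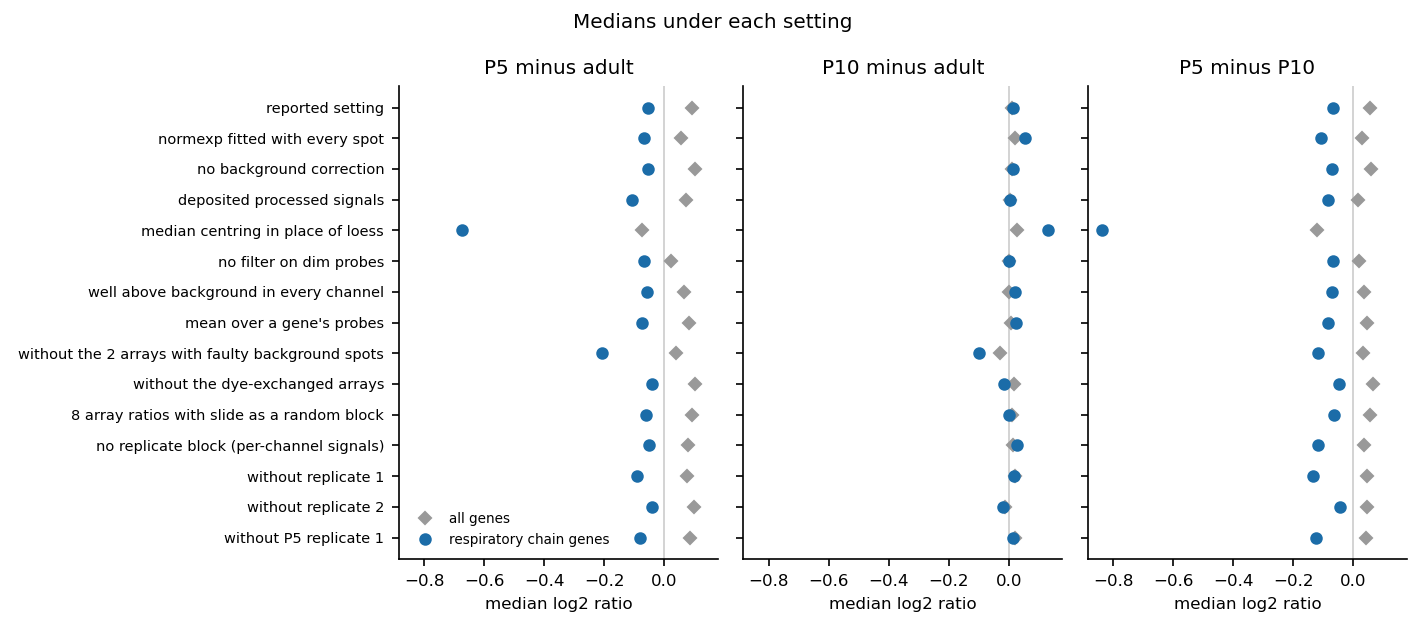
Median log2 ratio of the respiratory chain genes (blue circles) and of all genes (grey diamonds) under each processing setting, for the 3 comparisons. Median centring gives medians of -0.67 and -0.84 for the respiratory chain genes in the comparisons with P5, away from those of the other settings.

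Complex I, the entry point for electrons from NADH, held 9 of the 13 genes called lower at P5, and 35 of the 80 fitted genes. Of these 35, counted by name and so with Ndufa4 and Ndufa4l2, 9 were called lower and 2 higher than in the adult. That is 31.4% called, against 53.1% of all genes (30.1% higher and 23% lower). The median was -0.13, against 0.09 over all genes. Among the core subunits, which carry the flavin and the iron-sulphur clusters, Ndufs7 and Ndufs8 were lower. Both lie on the route from the last clusters to ubiquinone.

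Ndufs8 had log2 ratios of P5 over adult of -0.50 and -0.34 on the direct arrays of replicates 1 and 2, and of P5 over P10 of -0.68 and -0.45. Its P10 over adult ratios were 0.38 and 0.16, and 0.39 and 0.03 with the dyes exchanged. P5 was thus the low age on every array that held it, and P10 was not below the adult on any. The fit gave -0.41 (SE 0.11, limma adjusted p = 0.0326) for P5 over adult, 0.22 (adjusted p = 0.263) for P10 over adult and -0.63 (SE 0.11, adjusted p = 0.0157) for P5 over P10. Without the P5 sample of replicate 1, the adult comparison was no longer called (-0.34, limma adjusted p = 0.128), while over the tested alternatives the adjusted p ran from 0.0151 to 0.143.

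Ndufs7 differed in its timing. Its P5 over adult ratios were -0.30 and -0.56, and its P10 over adult ratios -0.29 and -0.28, with -0.48 and -0.42 after the dye exchange. Both young ages lay below the adult on every such array, and P5 and P10 did not separate (0.31 and -0.18 on the arrays). The fit gave -0.46 (SE 0.13, limma adjusted p = 0.0363) at P5 and -0.39 (SE 0.13, adjusted p = 0.114) at P10. The call at P5 was kept in 8 of the 12 tested alternatives, with a limma adjusted p of up to 0.163.

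The accessory subunits of complex I surround the core and serve its assembly and stability. Of 26 fitted, 5 were lower and 2 higher at P5 than in the adult (26.9% called, against 53.1% of all genes), with a median of -0.13. Ndufa7 was low at both young ages: its arrays read -0.95 and -0.62 for P5 over adult, -0.81 and -0.56 for P10 over adult, and -0.42 and -0.41 with the dyes exchanged. No array put a young age above the adult. The fit gave -0.63 (SE 0.10, limma adjusted p = 0.00747) at P5 and -0.56 (SE 0.10, adjusted p = 0.0266) at P10. Ndufa6 was likewise below the adult on all 6 arrays that paired a young age with it, from -0.94 to -0.18, and its fitted value at P5 was -0.60 in both replicates (SE 0.10, limma adjusted p = 0.0085).

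The membrane-arm subunits Ndufb3, Ndufb4 and Ndufb10 were lower at P5, with fitted ratios between -0.53 and -0.41. Ndufb3 had -0.50 and -0.55 in the replicates (limma adjusted p = 0.00975), Ndufb4 -0.60 and -0.43 (adjusted p = 0.0128) and Ndufb10 -0.24 and -0.58 (adjusted p = 0.0449). The call of Ndufb10 was kept in 6 of the 12 tested alternatives, with a limma adjusted p of up to 0.131. At P10 all 3 lay between the P5 value and 0 (-0.29, -0.31 and -0.36) and none was called. Ndufb4 had a second probe, which gave -0.45 for P5 over adult.

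Ndufs4 and Ndufa1 went the other way. Ndufs4, an accessory subunit at the NADH-oxidising end whose loss in mice causes a Leigh-like brain disease, had array ratios of 0.35 and 0.58 for P5 over adult and between 0.35 and 0.55 for P10 over adult. All 6 arrays were above 0, and the fit gave 0.47 (SE 0.10, limma adjusted p = 0.0148) at P5 and 0.38 (adjusted p = 0.0575) at P10. Ndufa1, a small membrane-arm subunit coded on the X chromosome, reached 0.32 (SE 0.10, limma adjusted p = 0.0403) at P5. With median centring the values were -0.18 and -0.31 and neither was called. Without the 2 arrays that held faulty spots they were 0.25 and 0.23 (limma adjusted p = 0.288 and 0.263), and with normexp fitted on every spot 0.31 and 0.43 (adjusted p = 0.133 and 0.0668), again not called. Ndufa1 also lost its call when P5 was represented by replicate 2 alone (0.38, limma adjusted p = 0.0632; over the alternatives 0.0286 to 0.369).

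Ndufa4l2, a paralog of Ndufa4 induced by low oxygen, had the lowest P5 ratio of the family. On the arrays it read -0.88 and -0.77 for P5 over adult and -0.48 and -0.91 for P5 over P10, while P10 over adult stayed between -0.22 and 0.15. The fit gave -0.77 (SE 0.12, limma adjusted p = 0.00626) against the adult and -0.70 (SE 0.12, adjusted p = 0.0139) against P10. Its partner Ndufa4 was not called (0.14 and -0.04), and the 2 genes' ratios of P5 over adult differed by -0.69 in replicate 1 and -1.14 in replicate 2. Several vessel lists were lower at P5 against the adult and P10 as well: 8 of 9 pericyte genes against both (medians -1.40 and -1.17), 11 of 11 endothelial genes against both (-1.71 and -1.24), and 5 and 6 of 7 smooth muscle genes (-2.42 and -2.05). Of all genes 23% and 18.2% were lower in these comparisons. Cox4i2, the other member known from pericytes, had -0.17 and 0.08 and was not called in either.

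**Figure D3:**
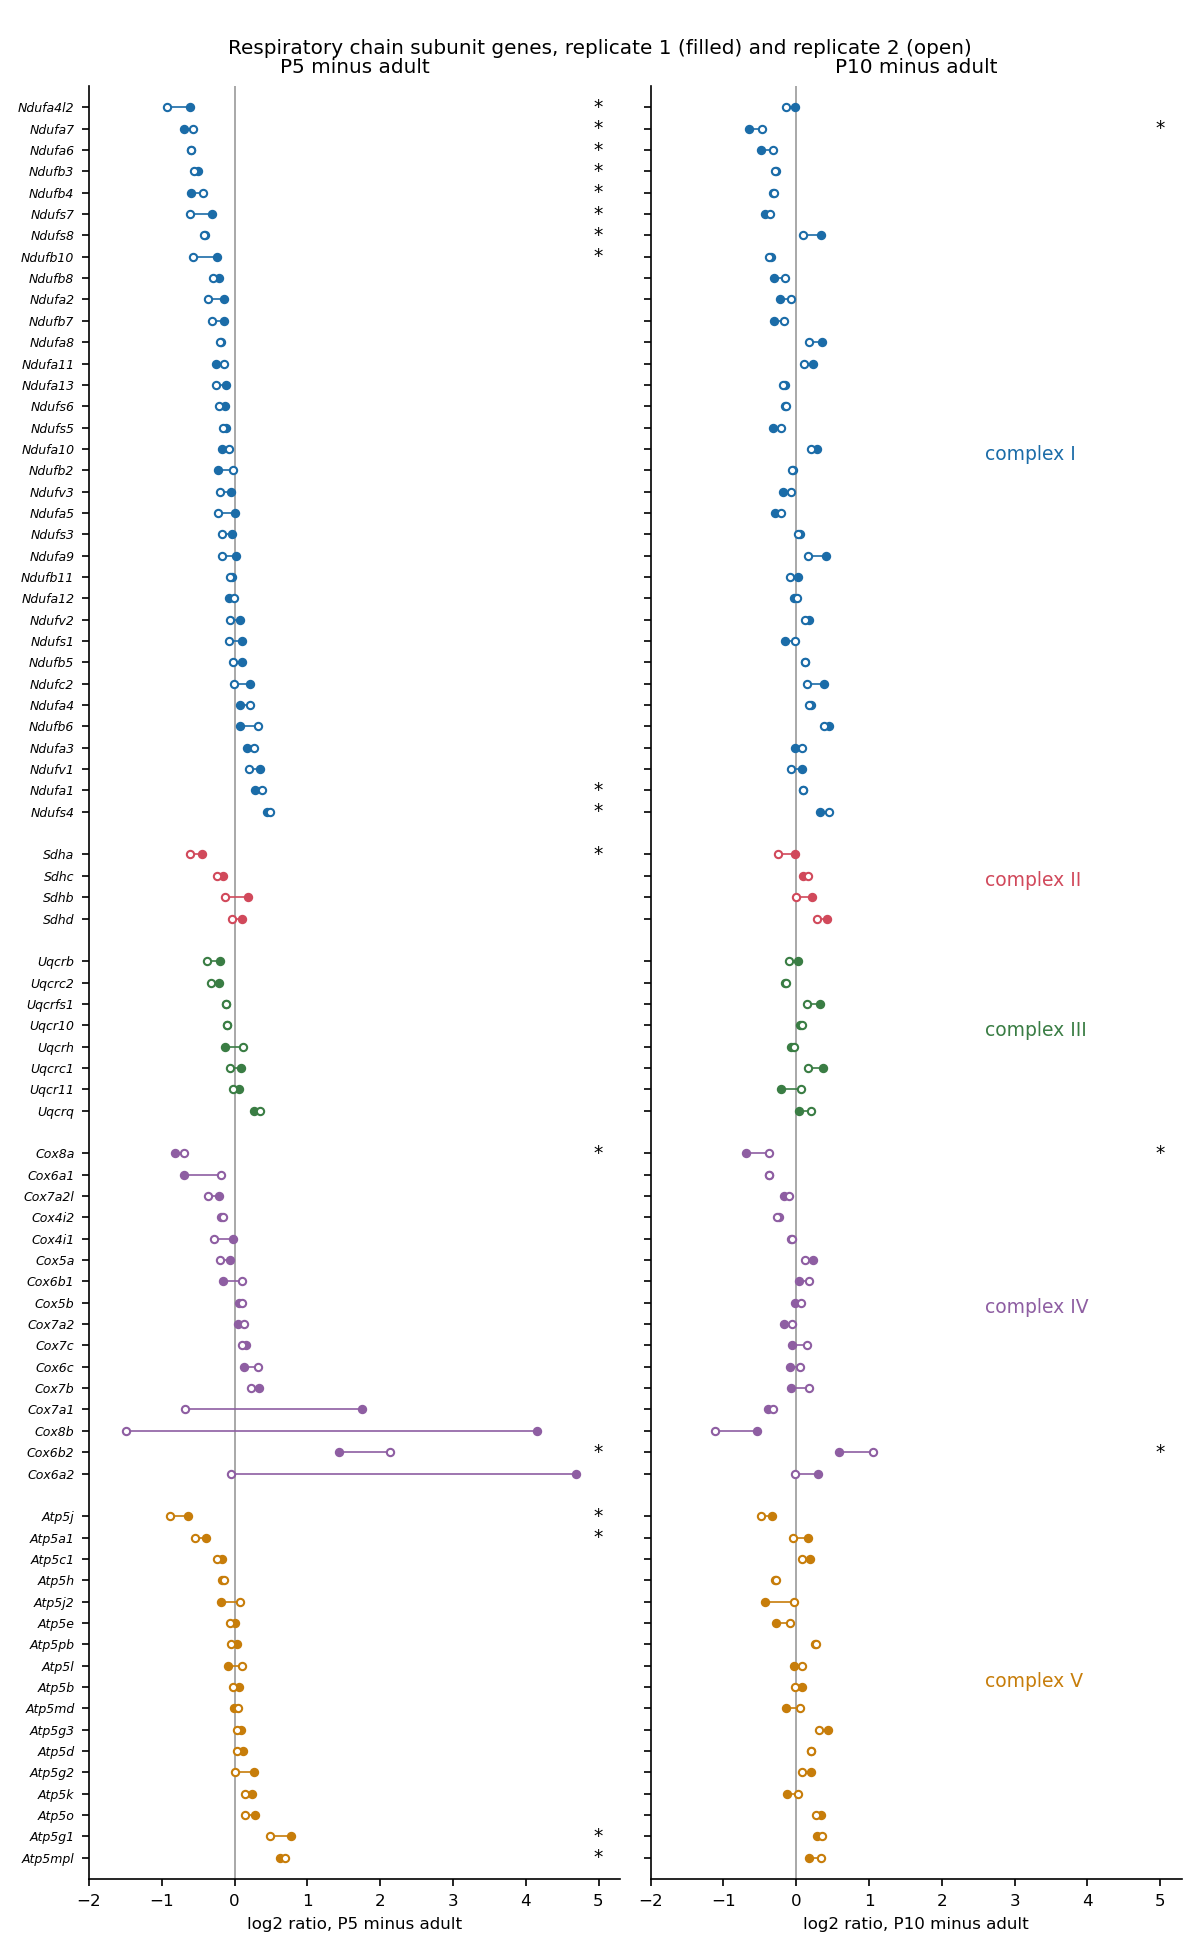
Log2 ratios of 79 fitted respiratory chain genes by complex, P5 over adult (left) and P10 over adult (right), replicate 1 filled and replicate 2 open, joined by a line; an asterisk marks an adjusted p under 0.05 (limma). The replicates lie close together for most genes and far apart for Cox6a2, Cox8b and Cox7a1 at P5.

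Complex II oxidises succinate and links the chain to the citric acid cycle. Sdha, its flavin-bearing subunit, was the 1 gene of 4 called, lower at P5 against both other ages. Its P5 over adult ratios were -0.23 and -0.59 and its P5 over P10 ratios -0.33 and -0.38, so P5 was low on each of these arrays, and the fit gave -0.53 (SE 0.11, limma adjusted p = 0.0139) and -0.40 (SE 0.11, adjusted p = 0.0391). Without the P5 sample of replicate 1, the call against P10 was lost (-0.42, limma adjusted p = 0.0816; over the alternatives 0.013 to 0.49). The call against the adult was lost without the replicate block (-0.41, limma adjusted p = 0.266), without the 2 arrays that held faulty spots (-0.42, adjusted p = 0.0888) and without the dye-exchanged arrays (-0.41, adjusted p = 0.0541). The membrane anchors Sdhc and Sdhd lay just outside the threshold against P10, at -0.33 (SE 0.10, limma adjusted p = 0.0531) and -0.32 (SE 0.10, adjusted p = 0.0559), below 0 in both replicates. At an unadjusted p under 0.05 there were 3 of the 4 genes in P5 over P10 and 1 in each of the other comparisons. Of all 21941 genes, 11472 had such a p in P5 over P10, 13291 in P5 over adult and 7036 in P10 over adult. With Sdha, 25% of the complex was called in P5 over adult and in P5 over P10, against 53.1% and 41.2% of all genes. Over adult, Sdhd had 0.03 at P5 and 0.35 at P10.

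Complex III, which passes electrons from ubiquinol to cytochrome c, had no called gene among its 8 in any comparison by limma. At an unadjusted p under 0.05 there were 3 in P5 over adult, 0 in P10 over adult and 1 in P5 over P10. Of all 21941 genes, 13291, 7036 and 11472 had such a p in these comparisons, and 53.1%, 17.5% and 41.2% were called. All 8 genes lay within 0.5 of 0 in each comparison. The extremes at P5 were Uqcrb at -0.29 and Uqcrq at 0.31, the latter just outside the threshold (SE 0.10, limma adjusted p = 0.0505).

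Complex IV, which reduces oxygen, held the 3 highest ratios of P5 over adult in the family, Cox6a2, Cox6b2 and Cox8b, all in subunits that exist in several forms. Of 16 fitted genes 1 was called higher and 1 lower at P5 than in the adult (12.5% called, against 53.1% of all genes). Cox8a, the general form of the smallest subunit, had array ratios of -0.96 and -0.61 for P5 over adult and between -0.65 and -0.29 for P10 over adult. Every array that paired a young age with the adult was below 0, and the fit gave -0.76 (SE 0.12, limma adjusted p = 0.00676) at P5 and -0.53 (SE 0.12, adjusted p = 0.0438) at P10. A second Cox8a probe gave -0.52 and -0.53.

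Cox6b2 was the member with the largest called difference. Its arrays read 1.06 and 2.12 for P5 over adult, 0.62 and 1.13 for P10 over adult with 0.83 and 1.05 after the dye exchange, and 1.001 and 1.17 for P5 over P10. All 8 arrays put the younger age higher, so the level fell from P5 to P10 and again to the adult. The fit gave 1.78 (SE 0.19, limma adjusted p = 0.00249), 0.83 (SE 0.19, adjusted p = 0.0446) and 0.96 (SE 0.19, adjusted p = 0.0188). With P5 represented by replicate 2 alone, the values were 2.05, 0.89 and 1.16, all called. Its general partner Cox6b1, which bridges the complex IV dimer, had -0.03, 0.11 and -0.14 and was not called.

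The 3 muscle forms separated by replicate at P5. Cox6a2 read 4.46 for P5 over adult and 4.59 for P5 over P10 in replicate 1, against -0.04 and -0.03 in replicate 2. Cox7a1 read 1.46 and 2.05 against -0.67 and -0.37. Cox8b read 4.21 and 4.94 in replicate 1. In replicate 2 its P5 signal was not well above background on either array, so the ratios measured there (-1.61 and -0.35) set only a bound on its P5 level. For these 3 genes ratios above 1 were read on no array but those holding the P5 sample of replicate 1, the sample in which the striated muscle genes were highest.

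P10 over adult was read on arrays without that sample. Cox8b had -0.35 and -1.13 there, and -0.64 and -1.03 with the dyes exchanged. Cox7a1 had -0.53 and -0.33, and -0.14 and -0.33. Both were thus below the adult on all 4 arrays, in both replicates, though neither was called at P10. The fit gives a gene the same SE in every comparison, here 1.41 for Cox8b and 0.65 for Cox7a1. The spread between the P5 replicates therefore enters the P10 test, and a missing call there does not measure the spread at P10. Cox6a2 had 0.38 and, with the dyes exchanged, 0.42 and -0.03 (its spot on the other array of replicate 2 was left out as an outlier). The P5 means of 2.32 (SE 1.20), 1.33 (SE 1.41) and 0.54 (SE 0.65) over adult for Cox6a2, Cox8b and Cox7a1 were not called (limma adjusted p = 0.161, 0.453 and 0.512), and describe neither replicate. Cox8b was well above background in 2 of 2 P5 channels of replicate 1, in 0 of 2 of replicate 2, and in all P10 and adult channels. The general forms were not high in that P5 sample: Cox6a1 had -0.69 in replicate 1 and -0.18 in replicate 2, Cox8a -0.82 and -0.70, and Cox7a2 0.05 and 0.13.

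**Figure D4:**
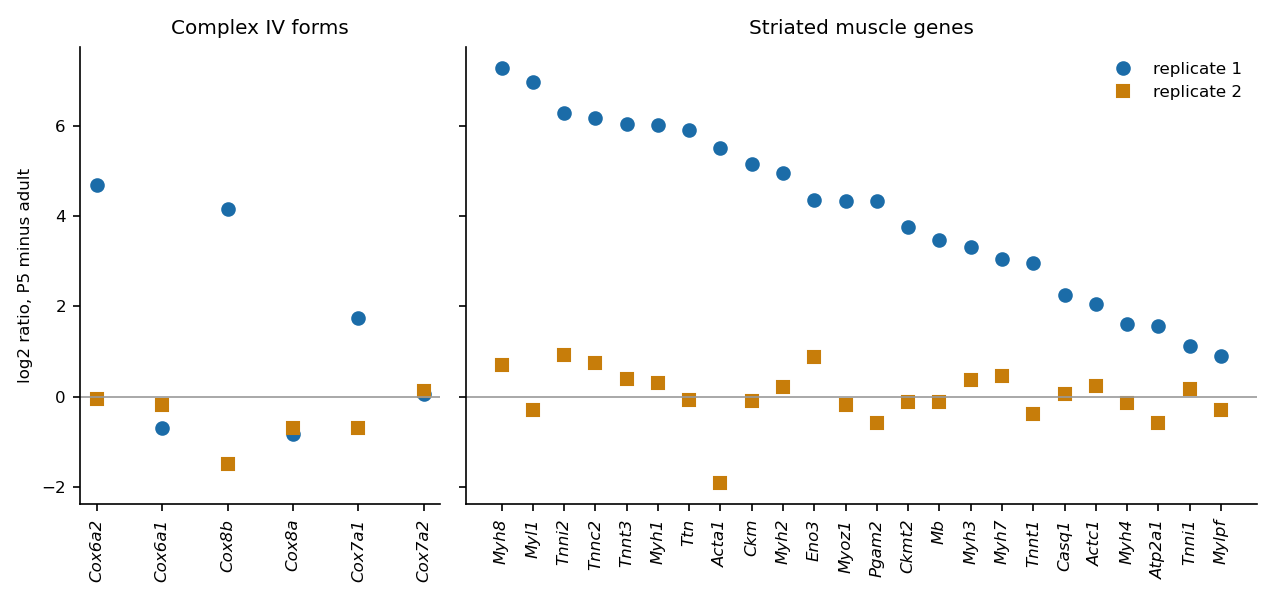
Log2 ratios of P5 over adult in replicate 1 (circles) and replicate 2 (squares) for the muscle and general forms of 3 complex IV subunits (left) and for 24 striated muscle genes (right). In replicate 1 Cox6a2 and Cox8b lie at 4.69 and 4.16 and the muscle genes at 0.90 to 7.29, while in replicate 2 all but Acta1 and Cox8b lie between -1 and 1; the P5 signal of Cox8b in replicate 2 was not well above background.

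The other members with several forms were not called in any comparison. In P5 over adult Cox4i1, the general partner of Cox4i2, had -0.15 and Cox7b, the partner of the testis form Cox7b2, had 0.28. Cox6a1 had -0.44 (SE 0.16, limma adjusted p = 0.0731).

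Complex V, ATP synthase, had 2 genes called higher and 2 lower of 17 in P5 over adult, with a median of 0.01. That is 23.5% called, against 53.1% of all genes (30.1% higher and 23% lower). Atp5j, coupling factor 6 in the stalk that holds the head still, had -0.54 and -0.74 for P5 over adult on the arrays. Its P10 over adult ratios were -0.23 and -0.38, and -0.44 and -0.62 with the dyes exchanged, and its P5 over P10 ratios -0.18 and -0.32. The younger age was the lower on all 8 arrays, and the fit gave -0.76 (SE 0.11, limma adjusted p = 0.0055) at P5 and -0.41 (SE 0.11, adjusted p = 0.0659) at P10. Atp5a1, the alpha subunit of the catalytic head, was low at P5 alone: -0.47 (SE 0.11, limma adjusted p = 0.0187) against the adult, 0.06 for P10 over adult and -0.53 (SE 0.11, adjusted p = 0.0198) against P10. Its spot on the P5 and adult array of replicate 1 was left out as an outlier, so that replicate's value (-0.39) rests on the other 3 arrays. The call against the adult was lost without the dye-exchanged arrays (-0.27, limma adjusted p = 0.281), without the replicate block (-0.27, adjusted p = 0.525) and with normexp fitted on every spot (-0.38, adjusted p = 0.135). The same 3 settings ended the call against P10 (-0.42, -0.34 and -0.52; limma adjusted p = 0.134, 0.456 and 0.122).

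Atp5mpl, a small membrane subunit, was higher at P5 with array ratios of 0.52 and 0.76 over adult and 0.49 and 0.40 over P10. Its fitted values were 0.66 (SE 0.10, limma adjusted p = 0.00636) and 0.41 (SE 0.10, adjusted p = 0.031). Atp5g1, 1 of 3 genes for the same c subunit of the rotating ring, had 0.51 and 0.46 over adult on the arrays and 0.63 (SE 0.13, limma adjusted p = 0.0138) in the fit. Both lost the call with median centring, which put Atp5mpl at 0.03 over adult and -0.37 over P10, and Atp5g1 at -0.015 over adult. Over the 12 tested alternatives, the call of Atp5mpl was kept in 11 over adult. Its call over P10 was kept in 6, with a limma adjusted p of up to 0.26. Atp5g1 also lost its call without the 2 arrays that held faulty spots (0.29, limma adjusted p = 0.214), with normexp fitted on every spot (0.69, adjusted p = 0.0573) and without the replicate block (0.59, adjusted p = 0.0685).

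**Figure D5:**
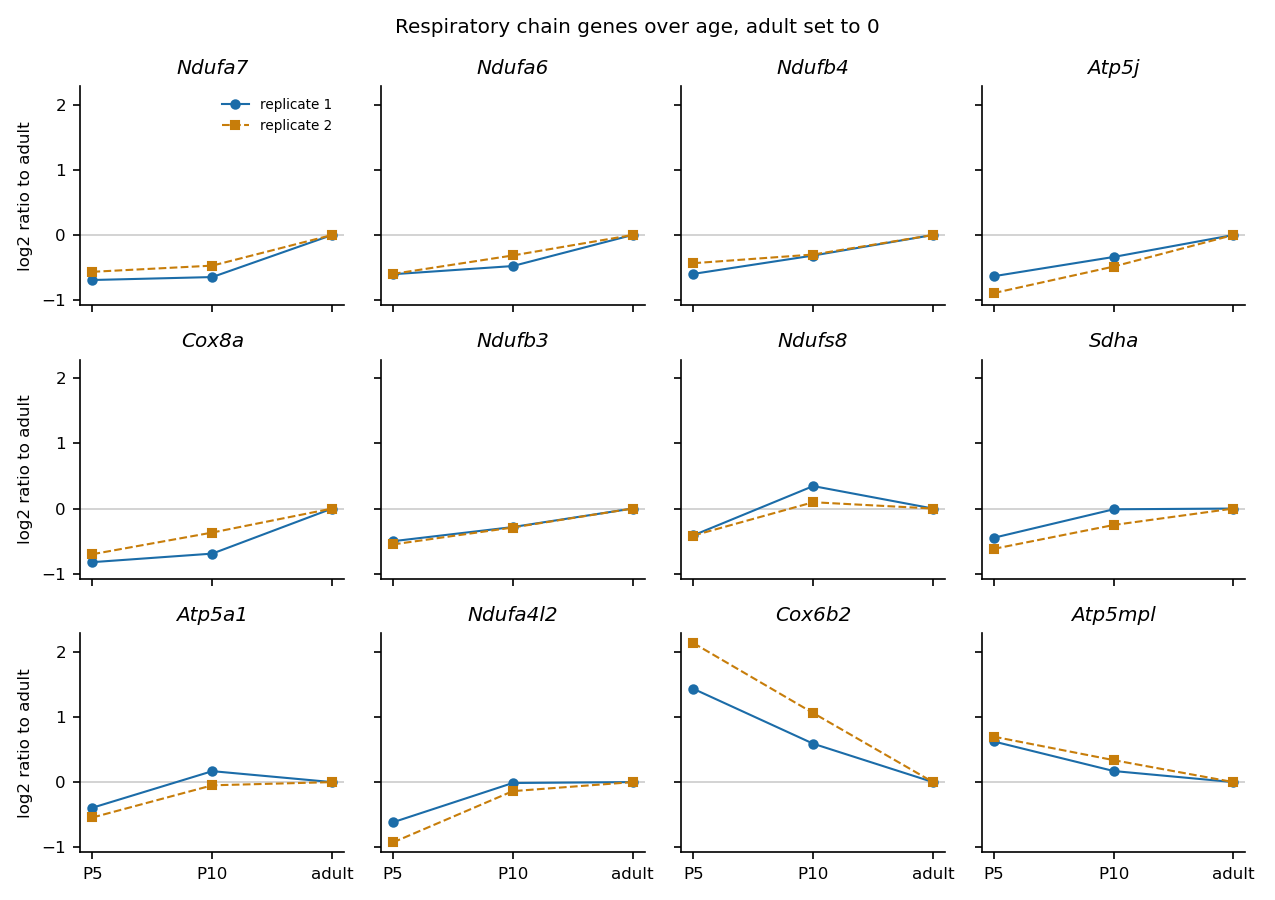
Log2 ratio to the adult at P5 and P10 in replicate 1 (circles, solid) and replicate 2 (squares, dashed) for 12 called genes. Ndufa7, Ndufa6, Ndufb3, Ndufb4, Atp5j and Cox8a lie below the adult at both young ages, whereas Ndufs8, Sdha, Atp5a1 and Ndufa4l2 are low at P5 and lie between -0.25 and 0.35 at P10; Cox6b2 and Atp5mpl fall with age.

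By P10 few members differed from the adult. limma called 3 of the 80 genes (3.75%), Ndufa7 and Cox8a lower and Cox6b2 higher, where 17.5% of all genes were called (8.42% higher and 9.1% lower). The median was 0.01, as it was over all genes, and 95% of the members lay within 0.5 of 0, against 80.5% of all genes. Without the P5 sample of replicate 1, which changes the dye term and the spread, 7 were called, 3 higher and 4 lower. Over the 12 tested alternatives, the calls of Ndufa7, Cox8a and Cox6b2 at P10 were kept in 7, 6 and 5. Complexes II, III and V had no call (limma, with 1, 0 and 5 genes at an unadjusted p under 0.05). Of all 21941 genes, 7036 had such a p.

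Between P5 and P10, limma called 11 of the 80 genes (13.8%), 9 lower and 2 higher at P5, where 41.2% of all genes were called (23% higher and 18.2% lower). The median was -0.07, against 0.06 over all genes. Of the 9 lower genes 6 are among the 35 fitted genes counted under complex I by name (17.1%, against 18.2% of all genes). The 6 include Ndufa4l2 and Ndufs8 as above, Ndufa8 (-0.46, limma adjusted p = 0.0254), Ndufa10 (-0.38, adjusted p = 0.0382) and Ndufa11 (-0.36, adjusted p = 0.050, just inside the threshold). The last 3 are accessory subunits whose P10 values lay 0.26, 0.25 and 0.17 above the adult without being called. The others were Sdha, Atp5a1 and Atp5c1, the gamma subunit that forms the rotor shaft (-0.34, limma adjusted p = 0.0441). Over the 12 tested alternatives, the calls of Ndufa8, Ndufa10, Ndufa11 and Atp5c1 were kept in 8, 6, 4 and 6. Their limma adjusted p went up to 0.10, 0.136, 0.176 and 0.19. The 2 higher genes were Cox6b2 and Atp5mpl. When the P5 sample of replicate 1 was left out, 5 of these 11 calls were kept, among them Ndufa4l2, Ndufs8, Atp5a1 and Cox6b2.

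Genes that build the chain were read beside its subunits. Of 42 assembly factors measured, 8 were called higher and 18 lower in P5 over adult (median -0.28), 1 and 4 in P10 over adult, and 6 and 13 in P5 over P10. These are 61.9%, 11.9% and 45.2% of the factors, against 53.1%, 17.5% and 41.2% of all genes. The shares called in either direction thus lie near the background, but the directions do not in the comparisons with P5. In P5 over adult and P5 over P10, 18 and 13 of the 42 were lower, where 23% and 18.2% of all genes were. The medians there were -0.28 and -0.20, against 0.09 and 0.06 over all genes. The largest differences among the called factors were Timmdc1, a complex I assembly factor, at 1.63 (SE 0.35, limma adjusted p = 0.0158) over adult and 1.57 (adjusted p = 0.0241) over P10, and, at P10 over adult, Atpaf2, an ATP synthase assembly factor, at 0.58 (adjusted p = 0.0267). Whether assembly factors and subunits differed in the share called was not tested. Of 5 other chain genes, 2 (40%) were lower in P5 over adult, led by Higd1a at -0.50 (limma adjusted p = 0.0113). In P5 over P10, 2 (40%) were lower, led by Ndufab1 at -0.61 (limma adjusted p = 0.0186). Ndufab1 is the acyl carrier subunit of complex I that the naming rule leaves out. Of all genes 23% and 18.2% were lower in these comparisons.

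Among 16 regulators of mitochondrial gene expression, 2 were higher and 3 lower in P5 over adult and 2 were lower in P5 over P10 (31.2% and 12.5% called, against 53.1% and 41.2% of all genes). Polrmt, the mitochondrial RNA polymerase, stood at 0.64 (limma adjusted p = 0.0161) over adult. Gabpa, the DNA-binding subunit of the factor that can bind the ETS core in the windows above, stood at -0.82 (SE 0.12, adjusted p = 0.0102) over P10. No regulator was called at P10 over adult by limma, against 17.5% of all genes, and 3 had an unadjusted p under 0.05.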

How the data were processed

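Gene expression was measured on 8 Agilent two-colour whole-genome arrays, grouped by the ages, dyes and replicate numbers in the labels. The authors deposited scanner files from Agilent Feature Extraction (version 10.5.1.1 per the file headers, 12.6 per the submitters' processing notes), and the median spot and background signals used here are intensity values on a linear scale, per the file headers. Background was corrected by normexp (offset 50), and 11 spots on 2 arrays were left out because their signal was over 100 units under the local background, as were spots marked as outliers. Arrays were scaled by loess (span 0.3) and spots of 1 probe averaged. Accessions were named through RefSeq (GRCm38.p6), which matched 27427 of 39429 probes. The probe design is of build mm9, so no probe coordinates are given.

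A probe passed the filter when all channels of some age were well above background, and a gene was its brightest kept probe. Of the members, 22 had several kept probes, with a median range of 0.11 log2. Each slide's 4 ratios were fitted by least squares with both age differences and a dye term, and limma 3.58.1 in R 4.3.3 then fitted age with replicate as a block (2 residual and 2.91 prior degrees of freedom), tested on simulated data. Slide equals replicate and each slide holds all ages, so the replicate block is part of the design and replicate values are within-slide values. The number of arrays limits the precision.

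Members and lists were chosen with earlier results of these data known, and the muscle list and the analysis without the P5 sample of replicate 1 were added after the data had been seen. Genes named are the called members, the members of the lists of subunit forms and their partners, the highest and lowest P5 over adult ratio in each complex, the called gene with the largest difference from each pathway list in each comparison, and up to 3 genes of each other list. Genes coded by mitochondrial DNA were not analysed here, and 1 member is counted but not reported here by name. Alternatives are given in the closing section.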

Additional observations from a re-analysis of the deposited data

How the results depend on the processing

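In P5 over adult, 6 of the 18 called members (Atp5j, Cox6b2, Ndufa4l2, Ndufa6, Ndufa7 and Ndufb4) kept their call and direction under all 12 alternatives that give a test. Values below are counts called of the respiratory chain genes unless stated. With normexp fitted on every spot, faulty backgrounds included, limma called 9 in P5 over adult (5379 of all genes), 0 in P10 over adult (6 at an unadjusted p under 0.05; 253 of all genes; median ratio 0.056) and 0 in P5 over P10 (17 unadjusted; 0 of all genes, 7065 unadjusted). With the deposited processed signals the P5 over adult median was -0.11, and 0 were called in P10 over adult (10 unadjusted) and 7 in P5 over P10. Median centring called 42, 0 (1 unadjusted; 1279 of all genes) and 57 in the 3 comparisons, with medians of -0.67, 0.13 and -0.84. It turned Ndufa1 (-0.31), Atp5g1 (-0.015) and Ndufs4 (-0.18) in P5 over adult and Atp5mpl (-0.37) in P5 over P10. Without the filter on dim probes 17 were called in P5 over P10.

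Without the 2 arrays that held faulty spots, the medians were -0.21 in P5 over adult and -0.10 in P10 over adult, with 0 called (9 unadjusted; 1885 of all genes) in the latter and 3 (5611 of all genes) in P5 over P10. Without the dye-exchanged arrays 1 was called in P10 over adult, with a median of -0.015. Taking the 8 array ratios as samples with slide as a random block called 36 in P10 over adult (18 in each direction; 10096 of all genes) and 18 in P5 over P10. That setting counts repeated arrays of the same RNA as separate values. Without the replicate block (per-channel signals), 11 were called in P5 over adult, 0 in P10 over adult (7 unadjusted; 1804 of all genes) and 3 in P5 over P10 (5289 of all genes). Without the P5 sample of replicate 1, 7 were called in P10 over adult and 5 in P5 over P10. With 1 replicate at a time, which leaves no test, the medians ran from -0.091 to -0.042, from -0.018 to 0.016 and from -0.14 to -0.045. Where no other value is given, the cause of a change was not tested.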

Other observations

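Other mitochondrial gene groups were measured on the same arrays. Of 77 genes for proteins of the mitochondrial ribosome, which translates the subunits coded by mitochondrial DNA, limma called 4 higher and 21 lower in P5 over adult (median -0.18), 2 and 1 in P10 over adult (median 0.07), and 2 and 23 in P5 over P10 (median -0.23). The shares called in either direction were 32.5%, 3.9% and 32.5%, below those of all genes (53.1%, 17.5% and 41.2%). The calls in the comparisons with P5 were mostly lower. There 21 and 23 of the 77 were lower, where 23% and 18.2% of all genes were, with all-gene medians of 0.09 and 0.06. Mrps10 was the gene with the largest called difference, at 1.07 (SE 0.14, limma adjusted p = 0.00453) over adult and 0.98 (adjusted p = 0.011) over P10, against the direction of most called genes of the list. In P10 over adult Mrpl57 led at 0.56 (limma adjusted p = 0.0288).

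Of 13 genes of the citric acid cycle, which feeds the chain, 2 (15.4%) were higher in P5 over adult, where 30.1% of all genes were. Dlst, a subunit of 2-oxoglutarate dehydrogenase, led at 0.46 (SE 0.10, limma adjusted p = 0.0168). In P5 over P10, 3 (23.1%) were lower, against 18.2% of all genes, led by Suclg2 at -0.74 (SE 0.17, limma adjusted p = 0.0245). In P10 over adult limma called none (2 at an unadjusted p under 0.05), against 17.5% of all genes. Of 10 carriers and porins, 2 (20%) were lower in P5 over adult and 5 (50%) in P5 over P10, against 23% and 18.2% of all genes. In P10 over adult 1 (10%) was higher, against 8.42% of all genes. The carriers named by the largest called difference were Vdac2, a porin of the outer membrane, at -0.57 (SE 0.10, limma adjusted p = 0.00886) over adult and Slc25a10, the dicarboxylate carrier, at -0.56 (adjusted p = 0.0259) over P10. Slc25a5, an ADP/ATP carrier, had 0.60 (limma adjusted p = 0.0258) in P10 over adult.

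Ndufb9 and Ndufc1, which could not be fitted, had values in replicate 2 alone: -0.38 and -0.08 in P5 over adult, and -0.27 and -0.02 in P10 over adult. Probes of 1 gene disagreed most for Ndufv3, a flavoprotein-arm subunit of complex I. Its brighter probe gave -0.12 in P5 over adult and 0.00 in P5 over P10, and its dimmer probe -0.65 and -0.70. Ndufv3 was chosen after its values had been seen. Of the 22 members with several kept probes, 5 had probes of opposite sign in P5 over adult.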
